A study of Mus musculus with 2 samples.

Results

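Choroidal melanocytes carrying more transcripts of Prb1, Car6, Gjb2 and Cort than of Syt4, Scrg1, Nrcam and Stmn3 were examined in single-cell libraries of the mouse choroid and retinal pigment epithelium (RPE). They are called Prb1-set melanocytes here. The rule found 427 such cells among 21898 cells in all, 215 in library 1 and 212 in library 2. The cells were chosen by their own expression, so every difference from other cells is a description and none was tested.

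Both libraries came from wild-type ICR mice, an outbred albino stock, aged 8 weeks and without treatment. Each library pooled the choroids of 1 male and 1 female, the dissected tissue was digested with collagenase and then trypsin, and 3′ transcripts were counted as unique molecular identifiers (UMIs). The pooled mice of a library were not separated here, so the 2 libraries are the replicates of 1 group. No promoter-driven transgene, engineered mutation or second condition enters any comparison, and the albino background is common to all cells compared.

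Barcodes counted as cells when they held 1000 UMIs or more, from 500 genes or more, of which no more than 20% were mitochondrial, which left 8497 and 13401 cells in libraries 1 and 2. For library 2 this is more than the number of cells that the labels give as loaded. Melanocytes were the cells with at least 2% of their UMIs from Dct, Pmel, Mlana and Tyrp1, at least 1 Sox10 UMI and at most 2 UMIs of Rpe65, Cdh5 and Ptprc together. They numbered 972 and 1466. The comparison groups were the 757 and 1254 other melanocytes, among them 16 and 24 with equal UMIs of both gene sets, and all other cells, 7525 and 11935. The libraries shared 31 cell barcodes over all cells, 0 among melanocytes and 0 among Prb1-set melanocytes.

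Melanocytes of the choroid descend from the neural crest, unlike the RPE, which is a neuroepithelium. The transcription factors Sox10 and Mitf maintain the lineage and switch on the genes that build melanosomes, the organelles in which tyrosinase and its relatives make melanin. In albino animals tyrosinase carries a defect and pigment is not made, but melanocytes persist and transcribe the melanosome genes.

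All 6 markers given for the population were higher in Prb1-set melanocytes than in all other cells, but all 6 are genes of the rule. All 12 general melanocyte markers were higher too, 7 of them outside the rule, beside 6.26% of all measured genes. Against the other melanocytes, 2 of the 6 (Prb1 and Car6) were at least 2-fold higher in both libraries. Sox10 was lower there, at a log2 difference of -0.22. The division from the other melanocytes was less clear. The balance of the 2 gene sets, as log2 of the ratio of their UMIs plus 1, formed a single spread around a median of -1.0 in library 1 and -1.27 in library 2, with an SD over cells of 1.40 and 1.37. No gap or second peak lay at the threshold. Of the Prb1-set melanocytes, 29 and 36 were inside it by 1 to 3 UMIs, and 70 and 77 other melanocytes were outside it by 0 to 3 UMIs. Those just inside held a median of 24 and 17.5 Prb1-set UMIs beside 22 and 15.5 Syt4-set UMIs, and those just outside 16.5 and 20 beside 18 and 20. These are values of the rule's own genes. They show no break at the threshold and do not decide whether the cells form a type, so the cells are named by their rule.

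**Figure D1:**
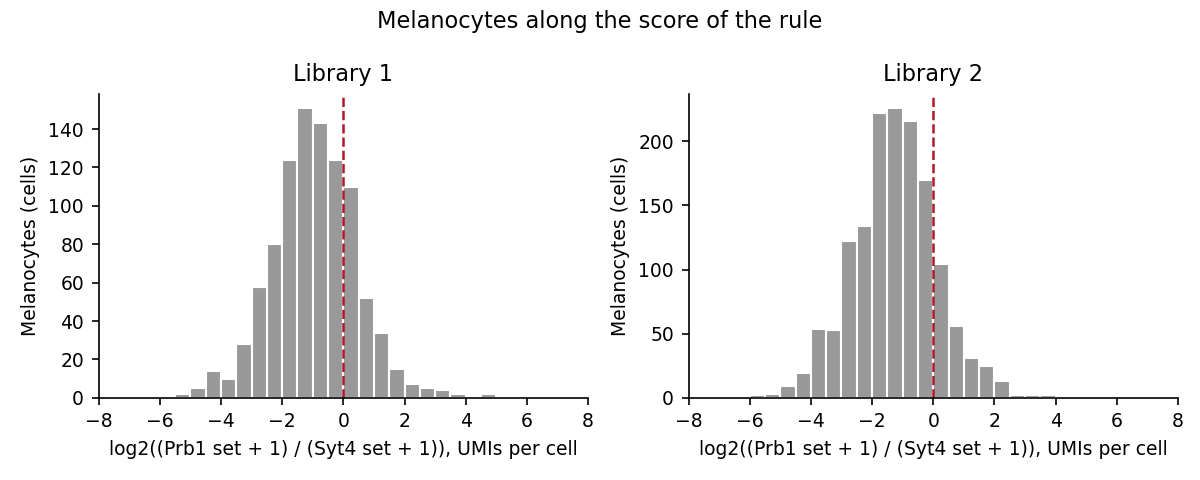
Number of melanocytes (y axis) by the log2 ratio of Prb1-set to Syt4-set UMIs per cell (x axis, 1 added to each sum), in bars 0.5 wide, with the threshold of the rule as a dashed line. Cells with equal sums are in the bar right of the line, and the spread has a single peak, with medians of -1.0 and -1.27, and no gap at the threshold.

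Prb1-set melanocytes made up 22.1% of melanocytes in library 1 (95% exact binomial interval 19.5 to 24.9%) and 14.5% in library 2 (12.7 to 16.4%), a mean of 18.3 ± 5.42% (SD, n = 2). Of all cells they were 2.53% and 1.58%. The intervals cover counting error only. Their median depth was 13158 and 11138 UMIs and 3401 and 3381 genes per cell, against 11879 and 10326.5 UMIs and 3245 and 3252.5 genes in the other melanocytes. All other cells had medians of 7210 and 7829 UMIs. Mitochondrial UMIs took a median of 2.54% and 2.85% in Prb1-set melanocytes and 2.60% and 2.81% in the other melanocytes.

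The promoters of 4 genes are shown because Prb1 leads the population, Prpmp5 was the gene outside the rule, at 50 CPM or more, that differed most with it, Car6 is another secreted-protein gene of the set, and Tyrp1 is a melanosome gene under known control by Mitf. Each runs from 250 bases before to 50 bases after the RefSeq gene start (GRCm38.p6), 5′ to 3′ on the gene's strand. Capitals mark a SOX-type motif, ACAAAG or its reverse complement CTTTGT, or the E-box CACATG or its reverse complement CATGTG. None of the marked motifs overlap.
Prb1, chr6:132210472-132210771, minus strand: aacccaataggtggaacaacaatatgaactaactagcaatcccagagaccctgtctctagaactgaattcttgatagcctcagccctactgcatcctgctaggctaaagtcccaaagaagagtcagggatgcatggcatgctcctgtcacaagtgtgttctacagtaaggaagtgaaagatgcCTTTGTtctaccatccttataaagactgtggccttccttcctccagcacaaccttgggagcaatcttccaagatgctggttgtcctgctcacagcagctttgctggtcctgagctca
Prpmp5, chr6:132314694-132314993, minus strand: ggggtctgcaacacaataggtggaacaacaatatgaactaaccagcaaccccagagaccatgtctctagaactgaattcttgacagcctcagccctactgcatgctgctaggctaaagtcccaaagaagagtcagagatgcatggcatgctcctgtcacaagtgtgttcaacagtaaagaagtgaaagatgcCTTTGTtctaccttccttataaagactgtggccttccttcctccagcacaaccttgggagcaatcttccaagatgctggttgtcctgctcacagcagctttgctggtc
Car6, chr4:150201086-150201385, minus strand: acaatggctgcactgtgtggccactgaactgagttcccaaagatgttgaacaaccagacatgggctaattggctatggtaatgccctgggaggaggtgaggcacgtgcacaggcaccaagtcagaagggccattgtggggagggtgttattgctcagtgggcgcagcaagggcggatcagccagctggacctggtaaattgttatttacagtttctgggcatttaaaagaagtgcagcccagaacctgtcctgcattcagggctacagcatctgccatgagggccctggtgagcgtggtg
Tyrp1, chr4:80833963-80834262, plus strand: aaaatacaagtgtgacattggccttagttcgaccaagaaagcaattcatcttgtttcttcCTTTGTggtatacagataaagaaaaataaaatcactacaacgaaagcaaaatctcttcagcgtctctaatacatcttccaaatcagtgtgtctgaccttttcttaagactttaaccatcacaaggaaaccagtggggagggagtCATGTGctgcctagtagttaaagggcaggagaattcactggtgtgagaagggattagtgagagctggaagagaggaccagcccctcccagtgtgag

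Prb1 and Prpmp5 are neighbours on the minus strand of chromosome 6 (GRCm38), at 132206795 to 132210521 and 132311590 to 132314757, with 101068 bases between them. Both encode proline-rich proteins of the kind known from saliva. Their promoter windows were identical at 281 of 309 aligned columns (90.9%), while those of Prb1 and Car6 matched at 53.0% of columns and those of Prb1 and Gjb2 at 46.6%. Each of the promoters of Prb1 and Prpmp5 held 1 SOX-type motif, 67 and 58 bases before the start. Tyrp1 held 1 E-box, 46 bases before the start, and 1 SOX-type motif, and Car6 held neither of these letter strings. Other forms of the E-box were not searched for, and the Car6 window holds the letters CACGTG. Over 32851 mouse promoters of the same length, 18.7% held the SOX-type motif and 14.2% the E-box. A match is a match of letters and says nothing of binding.

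Prb1 had the largest difference from the other melanocytes among the 8 splitting genes, and a minority of cells carried it. Summed over cells, Prb1 stood at 1169 and 984 CPM, in which each group's UMIs are scaled to the same total, in Prb1-set melanocytes of libraries 1 and 2, at 24.6 and 38.4 CPM in the other melanocytes and at 7.55 and 11.7 CPM in all other cells. The log2 difference from the other melanocytes was 5.08 ± 0.61 (SD over the 2 libraries, n = 2, as for all differences below, each on the log2(CPM + 1) scale). Yet 22.3% and 20.8% of Prb1-set melanocytes had any Prb1 UMI, against 7.40% and 5.58% of the other melanocytes and 0.405% and 0.980% of leukocytes, which were cells with at least 2 Ptprc UMIs and had a median depth of 9001 and 9156.5 UMIs. After thinning every cell to 2000 UMIs, which left out 1 and 2 Prb1-set melanocytes, 15.4% and 16.2% of them had a Prb1 UMI, against 2.25% and 2.33% of the other melanocytes and 0% and 0.375% of leukocytes. The 10 Prb1-set melanocytes with the most Prb1 UMIs held 67.0% and 66.1% of the population's Prb1 UMIs, and the highest single cells had 521 and 253 UMIs. For Prpmp5 the 10 highest cells held 69.6% and 78.7%.

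Prpmp5 was not in the rule and followed Prb1. It stood at 399 and 409 CPM in Prb1-set melanocytes, 83.2 and 123 CPM in the other melanocytes and 4.91 and 5.40 CPM in all other cells, a log2 difference of 1.99 ± 0.37 from the other melanocytes and 6.04 ± 0.06 from all other cells. Like Prb1 it was held by few cells: 23.3% and 23.1% of Prb1-set melanocytes had a UMI, against 7.53% and 7.74% of the other melanocytes and 0% and 0.245% of leukocytes. Another neighbour, Gm8882, named after its values were seen, was far lower, at 6.42 and 4.03 CPM in Prb1-set melanocytes against 0.626 and 1.18 CPM in the other melanocytes. Prh1 and Prp2, further along the same chromosome, had 0 UMIs in all 3 groups.

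Over all melanocytes, whichever set was higher, Prb1 and Prpmp5 tended to lie in the same cells. Of the 52 and 55 melanocytes with at least 5 Prb1 UMIs, 44.2% and 54.5% had at least 5 Prpmp5 UMIs, against 3.26% and 2.62% of melanocytes with fewer. Within the Prb1-set melanocytes the shares were 47.2% and 58.1% against 7.26% and 2.21%. Read from the other side, 43.4% and 44.8% of melanocytes high in Prpmp5 were high in Prb1, so each gene also occurred without the other. The annotated transcripts share 23.1% of Prb1's words of 31 bases, and 6.38% within the last 500 bases, and a read within a shared stretch matches both. Without the melanocytes of 5 or more Prb1 UMIs, the difference of Prpmp5 between Prb1-set and other melanocytes was 0.48 on the log2 scale.

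**Figure D2:**
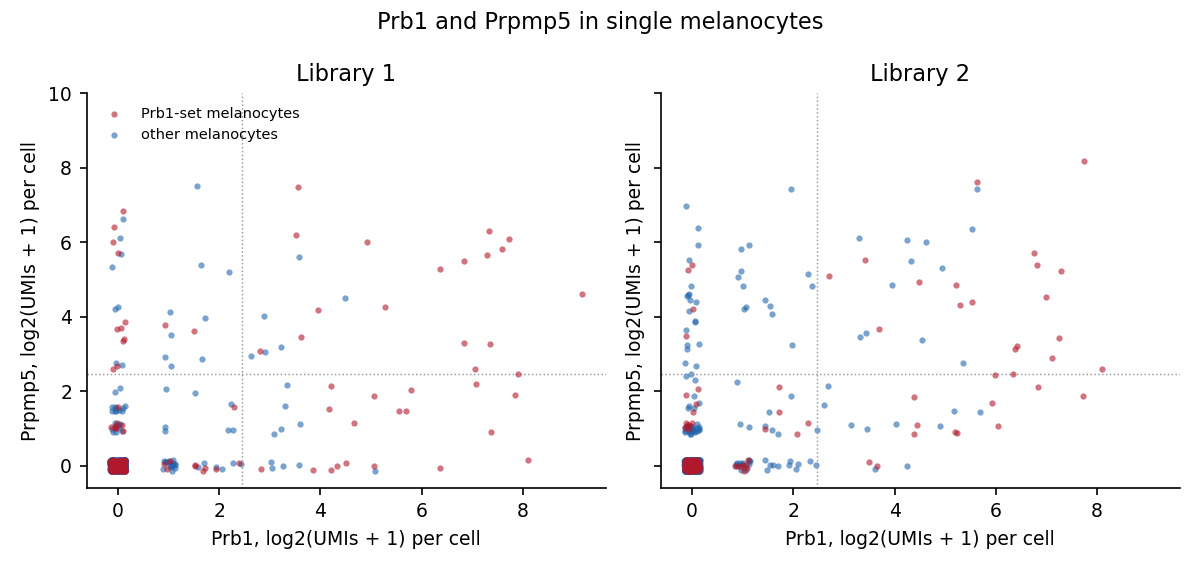
Prpmp5 (y axis) against Prb1 (x axis) as log2(UMIs + 1) in each melanocyte of libraries 1 and 2, red for Prb1-set and blue for other melanocytes, with a small random offset so that equal values can be seen. Dotted lines mark 5 UMIs, which 52 and 55 melanocytes reached for Prb1, and most cells lie at 0 for both genes.

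The members high in Prb1 were a minority. At least 5 Prb1 UMIs were found in 36 and 31 Prb1-set melanocytes (16.7% and 14.6%) and in 16 and 24 other melanocytes (2.11% and 1.91%). The remaining Prb1-set melanocytes had entered through Car6, Gjb2 and Cort: Car6 stood at 864 and 1103 CPM in the Prb1-high cells of the population and at 1289 and 1863 CPM in its other cells, and Stmn3 at 456 and 297 CPM against 158 and 88.8 CPM. That pattern follows from a rule on sums, in which many Prb1 UMIs can outweigh those of the Syt4 set. Prb1-high members had a median of 15885 and 12212 UMIs and the other members 13006 and 10723.

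Car6 encodes the secreted carbonic anhydrase of saliva. It stood at 1209 and 1724 CPM in Prb1-set melanocytes, 470 and 771 CPM in the other melanocytes and 31.2 and 35.6 CPM in all other cells. A Car6 UMI was present in 97.7% and 98.6% of Prb1-set melanocytes and in 83.1% and 89.3% of the other melanocytes, against 4.05% and 3.8% of leukocytes. At 2000 UMIs per cell the shares were 82.7% and 90% against 50% and 64.2%, with 1.64% and 1.75% of leukocytes. Most melanocytes on either side of the threshold thus had Car6 UMIs.

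Gjb2 encodes connexin 26, a gap junction subunit. Its level was 1019 and 715 CPM in Prb1-set melanocytes, 714 and 573 CPM in the other melanocytes and 28.7 and 24.9 CPM in all other cells, a difference of 0.42 ± 0.14 from the other melanocytes. At 2000 UMIs per cell, 70.1% and 62.9% of Prb1-set and 65.3% and 57.9% of other melanocytes had a Gjb2 UMI, against 0% and 2.00% of leukocytes. Cort encodes the neuropeptide cortistatin, a relative of somatostatin, and stood at 449 and 292 CPM in Prb1-set melanocytes, 254 and 175 CPM in the other melanocytes and 11.4 and 6.63 CPM in all other cells, a difference of 0.78 ± 0.06 from the other melanocytes.

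The opposing set was reduced but not lost. Syt4, which encodes a synaptotagmin of secretory vesicles, stood at 1299 and 1253 CPM in Prb1-set melanocytes, 2727 and 3455 CPM in the other melanocytes and 102 and 130 CPM in all other cells. It had a UMI in 97.2% and 95.3% of Prb1-set melanocytes. Stmn3, a microtubule regulator of the stathmin family, was at 214 and 127 CPM against 592 and 437 CPM in the other melanocytes. Scrg1 (220 and 170 CPM, against 269 and 190 CPM) and Nrcam, a neuronal adhesion molecule (186 and 305 CPM, against 234 and 380 CPM), differed by 0.23 and 0.32 in size on the log2 scale, both lower in Prb1-set melanocytes.

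**Figure D3:**
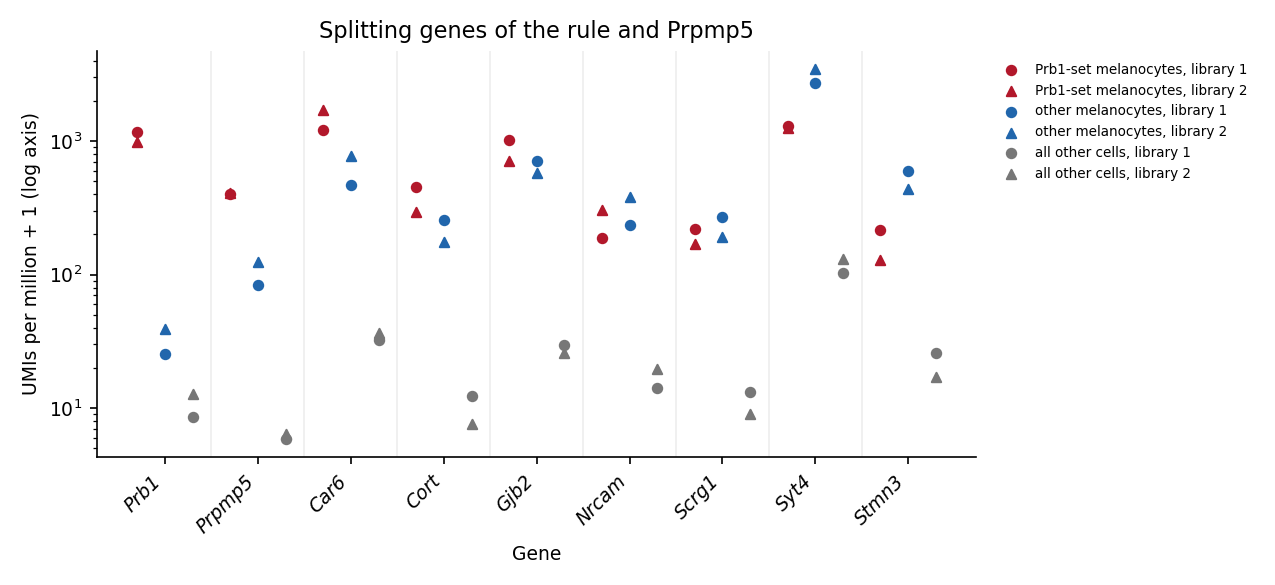
CPM plus 1 (log y axis) of the 8 genes that split the melanocytes and of Prpmp5, for Prb1-set melanocytes, other melanocytes and all other cells, with a point per library and no error bars. Prb1 and Prpmp5 differ most between the melanocyte groups, while Gjb2, Nrcam and Scrg1 are close, and Syt4 stays above 1000 in Prb1-set melanocytes.

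Because each gene took part in choosing the cells, each was also examined with the melanocytes chosen by the other 7 genes, an alternative added after the data had been seen. Prb1 then stood at 594 and 416 CPM in the chosen cells and 214 and 141 CPM in the remaining melanocytes, a difference of 1.51 ± 0.06 in place of 5.08, and the 10 highest cells held 92.0% and 87.2% of the chosen cells' Prb1 UMIs. Cort differed by 0.47 ± 0.01 and Car6 by 0.40 ± 0.11. Stmn3 differed by -0.73 ± 0.34, at 300 and 295 CPM against 586 and 414 CPM. Gjb2 differed by -0.10 ± 0.18, with opposite signs in the 2 libraries, and stood at 685 and 605 CPM against 800 and 593 CPM. Syt4 differed by -0.12 ± 0.08, Scrg1 by -0.11 ± 0.20 and Nrcam by -0.18 ± 0.10. Of the 8 genes, Prb1 alone kept a difference of at least 2-fold in both libraries. Without Gjb2 in the rule 113 and 145 cells were chosen, and without Syt4 679 and 1008.

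**Figure D4:**
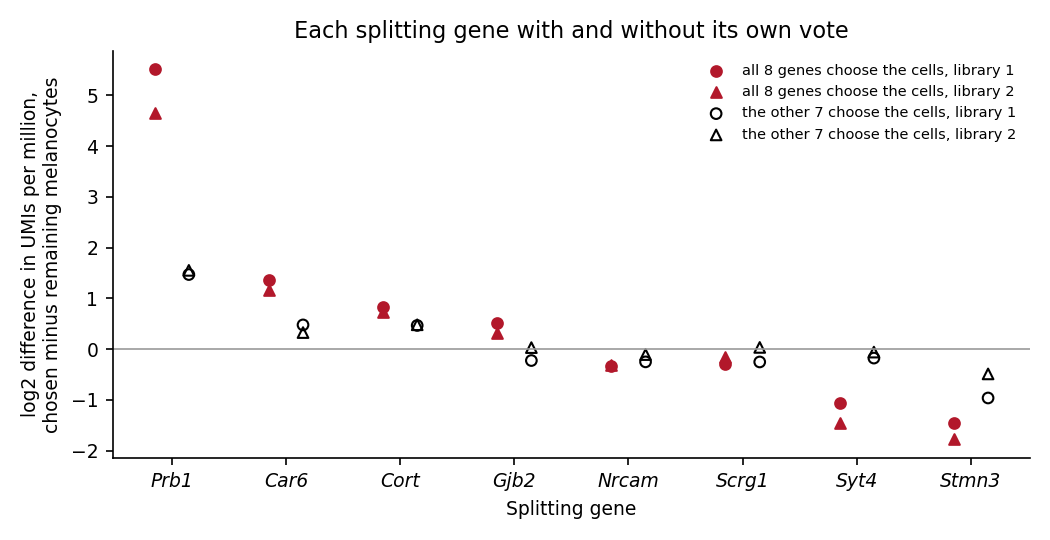
Difference in log2(CPM + 1) between chosen and remaining melanocytes for each of the 8 splitting genes, filled when all 8 genes chose the cells and open when the other 7 did, with a point per library. The open points of Gjb2, Scrg1, Nrcam and Syt4 lie near 0, those of Prb1 at 1.47 and 1.55, and those of Stmn3 at -0.96 and -0.49.

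Beyond the splitting genes the 2 melanocyte groups were much alike. Of 12288 genes with at least 10 UMIs in each library, 11 were at least 2-fold higher in Prb1-set than in other melanocytes in both libraries (0.0895%) and 36 at least 2-fold lower (0.293%). The rule used this contrast, so nothing is read from those shares. Among 2936 genes at 50 CPM or more, 97.5% differed by less than 0.5 on the log2 scale, and 3 were higher (Prb1, Prpmp5 and Car6) and 6 lower (Stmn3, Ccl2, Matn4, Acta2, Syt4 and Cxcl1). Across these genes, with those of the rule included, the differences of the 2 libraries correlated with r of 0.304. The value is a description only, since the rule chose the cells by its splitting genes in both libraries. Genes also share their cells and are not independent.

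Matn4 was lower in Prb1-set melanocytes over many cells. It encodes matrilin 4, a matrix adaptor protein, and stood at 19.3 and 21.8 CPM in Prb1-set melanocytes and 53.0 and 62.2 CPM in the other melanocytes, a difference of -1.44 ± 0.04. A Matn4 UMI was present in 16.3% and 14.6% of Prb1-set and 29.5% and 31.5% of other melanocytes, and the 3 highest other melanocytes held 6.30% and 4.91% of that group's UMIs. It stood at 172 and 210 CPM in the Schwann cell group described further on, and Rbpjl overlaps it on the opposite strand. With all cells thinned to 2000 UMIs and the groups then chosen anew by the rule, its difference was -0.45. With the melanocyte gate at 1% it was -0.69.

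The chemokine genes Ccl2 and Cxcl1 and the smooth muscle actin gene Acta2 were lower too, but a few cells carried them. Ccl2 stood at 76.4 and 59.2 CPM in Prb1-set melanocytes and 252 and 143 CPM in the other melanocytes, where 3 cells held 50.4% and 33.0% of the UMIs. Acta2 stood at 18.9 and 26.6 CPM against 58.3 and 56.7 CPM, with 61.9% and 25.7% of the other melanocytes' UMIs in 3 cells. Cxcl1 stood at 30.1 and 37.1 CPM against 71.1 and 80.1 CPM. Ccl2 changed sign when cells were thinned to 2000 UMIs and the groups chosen anew (2.31). Acta2 (0.091) and Cxcl1 (0.099) did so with the melanocyte gate at 4%.

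Markers of other cell types, Schwann cells aside, were low in both melanocyte groups and are given as summed CPM of each list. The 10 Schwann markers summed to 345 and 397 CPM in Prb1-set melanocytes and 422 and 480 CPM in other melanocytes. In all other cells they summed to 123 and 111 CPM, and in the Schwann cell group described further on to 14866 and 12104 CPM. The 8 RPE markers summed to 181 and 247 CPM, against 214 and 276 CPM in other melanocytes and 11917 and 16239 CPM in all other cells. The 6 fibroblast markers summed to 305 and 1218 CPM in Prb1-set melanocytes, 1004 and 1062 CPM in other melanocytes and 12243 and 11374 CPM in all other cells. The 6 mural markers summed to 91.6 and 422 CPM, against 210 and 347 CPM in other melanocytes, and the 6 rod markers to 2.70 and 1.21 CPM, against 6.68 and 13.5 CPM. Sag of the rod list and Acta2 and Myh11 of the mural list were among the genes at least 2-fold lower in Prb1-set than in other melanocytes in both libraries. The 5 endothelial markers summed to 14.2 and 28.2 CPM, against 17.0 and 29.2 CPM. The T and NK cell list summed to 0 and 1.21 CPM, against 0.417 and 0.486 CPM, and the keratin epithelium list to 2.37 and 2.42 CPM, against 0.313 and 2.36 CPM. The 6 macrophage markers summed to 89.2 and 85.0 CPM, against 109 and 70.2 CPM. Scrublet marked 5.12% and 11.3% of Prb1-set and 6.34% and 9.57% of other melanocytes as doublets. Free RNA is the RNA of barcodes with at most 100 UMIs, and its share was estimated from the 6 rod markers. The share was 0.337% and 0.276% in Prb1-set melanocytes and 0.833% and 3.09% in other melanocytes. With free RNA subtracted, 14 genes were at least 2-fold higher and 26 lower than in other melanocytes, in place of 11 and 36. Whether other cells' transcripts caused these differences was not tested.

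Prb1 and Car6 are known from salivary glands, so gland markers were examined. Of the 12 markers, 6 were measured against all other cells, and 2 were higher in Prb1-set melanocytes, Prb1 and Car6 themselves. Both are genes of the rule, and of the 4 outside it 0 were higher and 3 lower. Over all measured genes, 6.26% were called higher and 17.4% lower. Aqp5, Amy1 and Krt18 were lower: Aqp5, the water channel of acinar cells, had 0 UMIs in Prb1-set melanocytes of both libraries, which allows up to 1.014 and 1.208 CPM (3 UMIs, counting error only), against 5.01 and 2.93 CPM in all other cells. Krt18, a keratin of simple epithelia that the RPE also expresses, stood at 1.35 and 2.82 CPM against 311 and 351 CPM.

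Against all other cells the differences were those of a melanocyte. Of 17151 genes, 1073 were at least 2-fold higher in Prb1-set melanocytes in both libraries (6.26%) and 2980 at least 2-fold lower (17.4%), again with the rule having used the contrast. Some of these other cells carried melanocyte transcripts themselves: 309 and 453 cells had at least 2% melanin gene UMIs but no Sox10 UMI, at a median of 9459 and 8689 UMIs per cell, and they held 12.3% and 19.9% of each library's Prb1 UMIs. Prb1-set melanocytes held 81.5% and 54.9%. With every cell of at least 1% melanin gene UMIs left out of the other cells, the log2 difference was 9.66 in place of 6.69 for Prb1, 9.04 in place of 5.40 for Car6 and 8.74 in place of 4.68 for Pmel.

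The list members named below follow the size of their difference or, for those with a role of interest, were chosen after their values were seen. Of 33 measured melanin and melanosome genes, 22 were higher in Prb1-set melanocytes than in all other cells, 1 was lower and 10 were neither, with a median log2 difference of 3.53 beside -0.19 over all genes. The shares were 66.7% and 3.03%. For this and the lists that follow, the shares of all genes called higher and lower were 6.26% and 17.4%. The list counts include genes of the rule, whose difference follows from the choice of cells. Outside the rule, 18 of 29 melanosome genes, 8 of 20 transcription factors and 3 of 13 connexins and pannexins were higher. So were 1 of 14 carbonic anhydrases, 7 of 16 strial genes, 8 of 28 neural and Schwann genes and 2 of 27 peptide and granule genes. Pmel, the fibril protein on which melanin is laid down, stood at 16189 and 14069 CPM in Prb1-set melanocytes, 12301 and 11302 CPM in other melanocytes and 628 and 551 CPM in all other cells. Tyrp1, an enzyme of the eumelanin path, stood at 7344 and 8691 CPM, against 5886 and 6449 CPM in other melanocytes and 288 and 329 CPM in all other cells. Both were higher in Prb1-set than in other melanocytes in each library, by 0.36 ± 0.06 and 0.37 ± 0.08, while Dct, the enzyme that acts on dopachrome, differed by 0.04 ± 0.04 at 23699 and 23090 CPM against 22547 and 22826 CPM. All 3 are in the gate. Mlph and Slc45a2, a melanosome transport adaptor and a transporter, were next in size of difference, at 817 and 1192 CPM and at 650 and 749 CPM, against 36.1 and 45.5 CPM and 28.7 and 31.7 CPM in all other cells.

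Over the melanosome list, the median difference from the other melanocytes was 0.12 beside -0.01 over all genes. Of the list genes outside the rule, 3 were chosen for their roles after their values were seen. Tyr, the tyrosinase gene, stood at 700 and 792 CPM in Prb1-set melanocytes, 600 and 676 CPM in other melanocytes and 36.0 and 39.7 CPM in all other cells. Trpm1, a cation channel gene of melanocytes, stood at 1271 and 1327 CPM, against 921 and 1004 CPM and 63.5 and 80.7 CPM. Oca2, a melanosome transporter gene, stood at 525 and 635 CPM, against 355 and 462 CPM and 30.2 and 36.1 CPM. None of the 32 list genes measured between the melanocyte groups was at least 2-fold higher in Prb1-set melanocytes, and 1 was lower, the cystine transporter gene Slc7a11, at 0.676 and 3.63 CPM against 2.40 and 8.68 CPM.

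Of 21 transcription factors of the lineage, 9 were higher than in all other cells (Mitf, Sox10, Pax3, Tfap2a, Tfeb, Irf4, Foxd3, Sox5 and Sox6) and 4 lower, or 42.9% and 19.0%, with a median difference of -0.06 (0.01 with genes at 0 UMIs set to their floor of 3 UMIs, as for bracketed medians below), and none of 18 differed by 2-fold in both libraries from other melanocytes. Sox10 stood at 257 and 252 CPM in Prb1-set melanocytes, 304 and 289 CPM in other melanocytes and 10.4 and 9.93 CPM in all other cells. Tfap2a, Pax3 and Irf4 followed Sox10 in size of difference, at 3.85 ± 0.33, 3.81 ± 0.07 and 3.06 ± 0.04 over all other cells. Mitf stood at 164 and 495 CPM, against 163 and 415 CPM and 25.9 and 45.2 CPM, so the libraries differed from each other more than the melanocyte groups did.

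Of 28 receptors and ligands, 5 receptor genes were higher than in all other cells and 14 genes lower, or 17.9% and 50% (median -1.25, or -1.11 at the floor). Ednrb, the endothelin receptor that melanoblasts need, stood at 2508 and 3072 CPM in Prb1-set melanocytes, 2695 and 3088 CPM in other melanocytes and 166 and 179 CPM in all other cells. Kit, the receptor for stem cell factor, stood at 56.8 and 72.1 CPM, against 38.4 and 55.6 CPM and 9.04 and 11.1 CPM. Met, Mc1r and Erbb3 were the others that were higher. The ligands Kitl, Edn3, Edn1 and Hgf were among those lower than in all other cells, and Bmp4 was the lowest, at 0.676 and 0 CPM against 75.05 and 90.8 CPM.

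Gjb2, Gjb6, Gja3 and Gjc3 were higher than in all other cells and 4 genes lower, Gja1, Gja4 and Gjc1 among them, of 14 connexin and pannexin genes measured, 28.6% in each direction (median -0.48, or -0.18 at the floor). Gja1, the connexin 43 gene, stood at 9.12 and 14.1 CPM against 145 and 185 CPM in all other cells, and Gja4, an endothelial connexin gene, at 2.03 and 17.7 CPM against 132 and 78.7 CPM. Gjb6, which encodes connexin 30, the usual partner of connexin 26, stood at 183 and 166 CPM in Prb1-set melanocytes, 192 and 172 CPM in other melanocytes and 8.65 and 6.92 CPM in all other cells. Of 15 carbonic anhydrases, Car6 and the mitochondrial Car5b were higher (13.3%) and 4 lower (26.7%), at a median of 0.45 (0.68 at the floor), with Car12, Car3 and Car10 at 0 to 1.208 CPM in Prb1-set melanocytes against 7.65 to 52.7 CPM in all other cells. Of 17 genes known from the intermediate cells of the stria vascularis, the melanocytes of the inner ear, 8 were higher (47.1%) and 5 lower (29.4%), at a median of 0.49, with Atp1b1 at 10.1 and 11.3 CPM against 124 and 209 CPM and Cxcl12 at 14.9 and 30.6 CPM against 222.1 and 251.1 CPM. Kcnj10, a potassium channel gene, stood at 7.10 and 7.65 CPM against 14.9 and 21.9 CPM in other melanocytes and 1.03 and 1.40 CPM in all other cells, and Gsta4, a glutathione transferase gene, at 1283 and 824 CPM against 1988 and 1486 CPM and 355 and 289 CPM.

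Of 31 neural and Schwann genes, 11 were higher than in all other cells (35.5%) and 8 lower (25.8%), at a median of -0.55. S100b, a calcium-binding protein gene of neural crest derivatives, stood at 3212 and 2758 CPM, against 2895 and 2490 CPM and 189 and 145 CPM. Nes, the nestin gene, was lower, at 2.03 and 3.63 CPM against 62.7 and 57.3 CPM in all other cells. Of 29 peptide and granule genes 4 were higher (Cort, Syt4, Nppb and Adm) and 9 lower, Penk, Tac1 and Scg2 among them, or 13.8% and 31.03%. Their median of -0.65 changed sign to 0.02 at the floor. Penk, the enkephalin precursor gene, stood at 13.9 and 64.0 CPM against 765 and 993 CPM in all other cells.

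Genes acting on vessels were mostly lower than in all other cells, 25 of 37, and 4 were higher: Vegfb, Angptl2, Fgf1 and Sema3b, or 67.6% and 10.8% (median -2.65, or -2.55 at the floor). Vegfb stood at 536 and 493 CPM in Prb1-set melanocytes, 480 and 411 CPM in other melanocytes and 57.3 and 57.1 CPM in all other cells, and Fgf1 at 159 and 212 CPM against 153 and 193 CPM and 21.1 and 23.7 CPM. Vegfa was lower, at 56.4 and 43.5 CPM against 176 and 172 CPM in all other cells. Sema3f and Sema3c, which encode semaphorins, stood at 0.338 to 3.38 CPM against 33.1 to 83.0 CPM in all other cells. Of 41 matrix and adhesion genes 5 were higher (12.2%) and 24 lower (58.5%), at a median of -1.58. Spp1, which encodes osteopontin, stood at 3290 and 2558 CPM, against 2165 and 1607 CPM in other melanocytes and 668 and 390 CPM in all other cells, and Cdh1, the E-cadherin gene, at 183 and 221 CPM against 134 and 201 CPM and 9.91 and 11.2 CPM. The collagen genes Col1a1 and Col1a2 differed between libraries in Prb1-set melanocytes, at 32.8 and 167 CPM and at 45.3 and 225 CPM, as did the fibroblast markers above, and Itgb8 and Col9a3 were at 3.22 CPM or less.

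Immediate early and heat shock genes, which tissue digestion can induce, were lower than in all other cells for 16 of 27 (59.3%) and higher for 0, at a median of -2.07. Klf2, Hspb1, Egr3 and Nr4a2 differed most, with Hspb1 at 47.3 and 64.5 CPM against 746 and 546 CPM. Of 20 interferon genes 9 were lower (45%) and 0 higher, at a median of -1.17. Of 16 antigen presentation genes 7 were lower (43.8%) and 0 higher, at a median of -0.84. Isg15 and Ifit1 stood at 143 and 166 CPM and at 59.8 and 103 CPM, against 873 and 527 CPM and 390 and 442 CPM in all other cells. Cd74, the invariant chain gene of antigen-presenting cells, stood at 80.8 and 33.4 CPM against 853 and 788 CPM. Of 24 cell cycle genes 10 were lower, Mki67 and Top2a among them, or 41.7% (median -1.08, or -0.91 at the floor). The 1 higher gene (4.17%) was Ccnd2, at 920 and 889 CPM against 675 and 670 CPM in other melanocytes and 281 and 304 CPM in all other cells. Of 36 oxidative phosphorylation genes 3 were higher (Cox7a2, Cox4i1 and Ndufb8) and 1 lower, or 8.33% and 2.78%, at a median of 0.76. The share called higher was near that of all genes. Between Prb1-set and other melanocytes none of the genes in these 5 lists was at least 2-fold apart in both libraries.

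The genes outside the rule that exceeded all other cells most, taken at 50 CPM or more and chosen after their values were seen, were mostly shared with the other melanocytes. Cyp4b1, a cytochrome P450 gene, stood at 336 and 441 CPM in Prb1-set melanocytes, 226 and 228 CPM in other melanocytes and 11.1 and 11.04 CPM in all other cells. Brca1, a DNA repair gene, stood at 254 and 206 CPM, against 125 and 108 CPM and 7.06 and 5.55 CPM, and its difference from other melanocytes was 1.014 in library 1 and 0.93 in library 2. Scn8a, a sodium channel gene, stood at 427 and 376 CPM, against 300 and 265 CPM and 16.9 and 11.3 CPM. Slc18a2, the vesicular monoamine transporter gene, stood at 189 and 200 CPM, against 123 and 86.9 CPM and 8.05 and 5.73 CPM. Pla2g2e, a secreted phospholipase gene, did not repeat between libraries, at 145 and 72.1 CPM against 62.3 and 74.2 CPM in other melanocytes.

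The RPE and Schwann cells were set beside the population. Cells with at least 3 Rpe65 UMIs and no Sox10 UMI (the RPE group, 154 and 594 cells) had Dct at 1405 and 1371 CPM, Tyrp1 at 148 and 178 CPM, Gjb2 at 0.626 and 2.24 CPM and Car6 at 0 and 0.972 CPM. Their Rpe65 stood at 5978 and 5922 CPM, against 1.69 and 8.06 CPM in Prb1-set melanocytes. Schwann cells, taken as cells with Sox10, under 0.2% melanin gene UMIs, at most 2 UMIs of Rpe65, Cdh5 and Ptprc and at least 5 UMIs of a short list of Schwann genes that includes Mbp and Cdh19, numbered 51 and 55. The limit on Rpe65, Cdh5 and Ptprc was added after the data had been seen. Mbp, the myelin basic protein gene, stood at 10.8 and 6.45 CPM in Prb1-set melanocytes and at 1940 and 1214 CPM in Schwann cells, which it helped to choose. Prb1 stood at 2.87 and 2.63 CPM in Schwann cells, 1 UMI in each library. Nrcam, of the Syt4 set, stood at 186 and 305 CPM in Prb1-set melanocytes and at 192 and 176 CPM in Schwann cells.

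**Figure D5:**
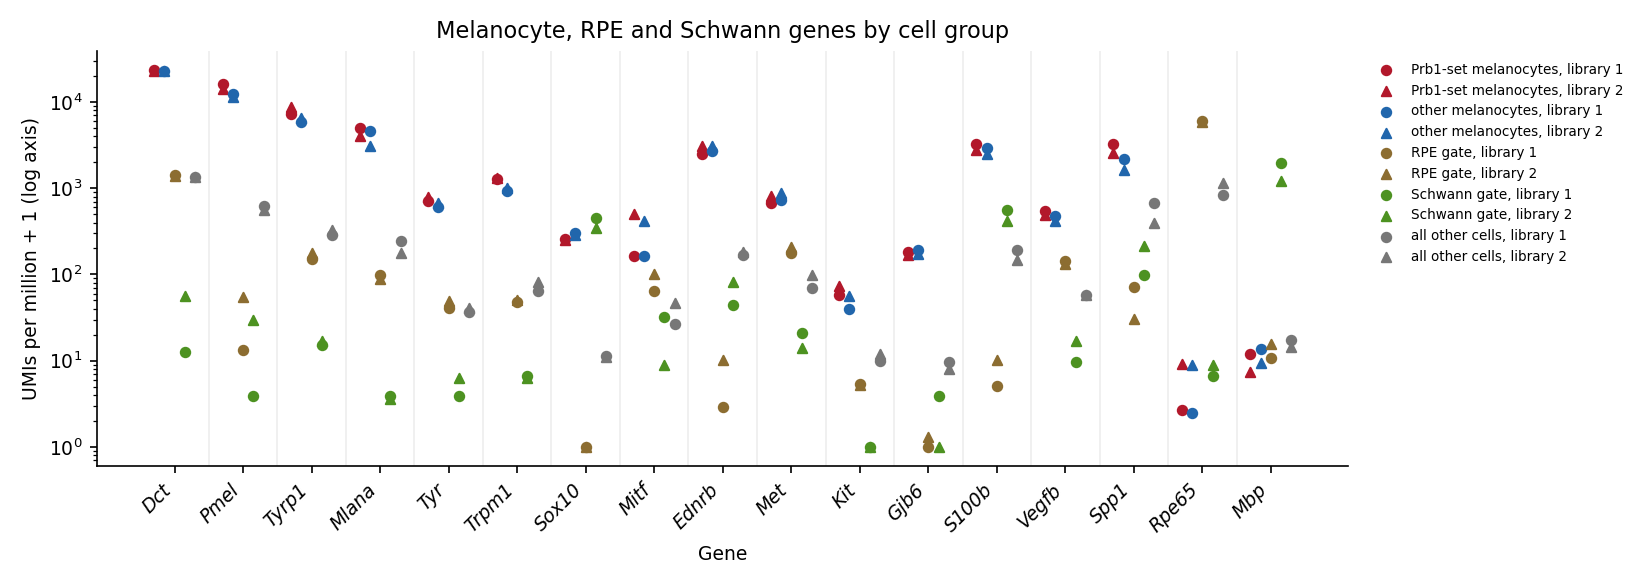
CPM plus 1 (log y axis) of melanocyte, RPE and Schwann genes in Prb1-set melanocytes, other melanocytes, the RPE group, Schwann cells and all other cells, with a point per library and no error bars. The points of the 2 melanocyte groups lie close together for the melanocyte genes, Rpe65 is high in the RPE group and Mbp in Schwann cells, and a gene with no UMI is drawn at 1.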

How the data were processed

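Each library holds transcripts of 1 pooled choroid-RPE sample, prepared with the Chromium 3′ v3.1 kit per the labels' protocols. The deposited values are raw UMI counts per gene and barcode, made by the authors with Cell Ranger. The submitters' processing notes name version 2.1.1 and the build mm10, while version 4 stands in the header lines of the matrices. The annotation behind the counts was not given in the sources used here, nor was strandedness. In all, the matrices list 32285 genes over 1959894 and 1856693 barcodes and total 91741168 and 149570817 UMIs.

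Members, lists and tests were chosen with earlier results of these data known. UMIs were summed per library and group in Python 3.11.15 (numpy 2.4.6, scipy 1.17.1), scaled to CPM, and differences taken as log2(CPM + 1) within a library. Prb1-set melanocytes held 2958952 and 2482496 UMIs in all. A gene was measured with at least 10 UMIs in each library over both groups, and called at 2-fold or more in both. Named genes were the rule's genes, those called against other melanocytes at 50 CPM or more (up to 15 higher and 10 lower), and members of fixed lists. Others are said to be chosen after their values were seen. No p-value was computed, and with 2 libraries the SD is itself uncertain. The procedure was tested on simulated data. Alternatives changed cell limits, gates, doublets (Scrublet in scanpy 1.11.5), depth, scaling (TMM in edgeR 4.0.16), free RNA, filter, pseudocount and libraries. Gene positions and transcripts come from GENCODE M21, which lists 99.6% of the gene IDs, and promoters from RefSeq (GRCm38.p6). Where a gene overlaps an antisense gene, as Matn4, Dct and Syt4 do, their reads cannot be told apart without strand. Some genes of the lists are not reported here.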

Additional observations from a re-analysis of the deposited data

How the results depend on the processing

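The share of melanocytes was 14.5% without library 1 and 22.1% without library 2. With 2 libraries, leaving 1 out cannot move the mean by 1 SD, so these 2 values do not measure stability. Under the other alternatives it ran from 16.3%, when at least 3 more UMIs of the Prb1 set were asked for, to 21.9% with the melanocyte gate at 4%. The share of all cells, 2.06% as reported, ranged from 1.58% to 2.53% when 1 library was left out. It was 0.989% with cells thinned to 2000 UMIs, where the whole rule was applied anew to the thinned counts. The rule asks for at least 1 Sox10 UMI, and at 2000 UMIs 39.7% and 39.5% of Prb1-set melanocytes had one. The cause of the lower share was not tested. The counts against other melanocytes depended on the settings. In place of 11 higher and 36 lower genes there were 19 and 19 with the melanocyte gate at 4%, 27 and 86 with thinned cells, 7 and 15 with a filter at 50 UMIs, 35 and 102 with a pseudocount of 0.1, and 3 and 7 with a pseudocount of 5. TMM scaling gave 7 higher. A single library gave 98 to 146 higher and 234 to 306 lower genes, since no repeat was asked for. Against all other cells, 1073 higher genes became 715 with a pseudocount of 5, and 2980 lower genes became 5111 with a pseudocount of 0.1 and 1755 with a pseudocount of 5; a single library gave 1386 to 1502 higher and 3541 to 3688 lower. Ccl2 changed sign with thinned cells (2.31), and Acta2 (0.091) and Cxcl1 (0.099) did so with the gate at 4%. Leaving Prb1 out of the rule, restricting the depth, leaving out Prb1-high cells and leaving melanin-rich cells out of the others were added after seeing the data. Every difference was taken within a library, so the cell groups were paired by library throughout. Genes with few UMIs in Prb1-set melanocytes, where 3 UMIs equal 1.014 and 1.208 CPM, are limited by depth.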
